A study of Mus musculus with 9 samples.

Results

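The integrated stress response and the genes that supply cells with amino acids were examined as a set of 42 genes in mouse intraperitoneal macrophages: the ATF4 axis, the enzymes that make serine, asparagine, proline and cysteine, amino acid transporters and cytosolic tRNA synthetases. The members were a list of symbols matched to the symbol column of the deposited table. All 42 were found among its 15343 genes and all 42 passed the filter on low values, which asked for 3 or more libraries at a normalized count of 10 or above, as did 13895 genes in all. RNA was sequenced from primary macrophages of mice marked WT (wild type), with a strain written as CF7B1/6; age and sex are not among the labels. Every library came from cells stimulated with lipopolysaccharide (LPS), a bacterial cell wall component sensed by TLR4, at 100 ng/ml for 6 h. 3 libraries had LPS with no pretreatment in their labels, 3 had 1 h of 100 µM DHA before it, docosahexaenoic acid, which belongs to the omega-3 fatty acids, and 3 had 10 µM cpdA, called a Gpr120 agonist, for 1 h before it. Unstimulated cells were not analysed here, so no value below describes the response to LPS itself, and each comparison with LPS holds the compound together with the handling of the pretreatment. Nothing in the labels says whether the 3 libraries of a group came from separate mice or cultures, so the tests measure the spread between these libraries only.

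The integrated stress response begins when a kinase that senses stress, such as PERK (Eif2ak3) in the endoplasmic reticulum or GCN2 (Eif2ak4) for scarce amino acids, phosphorylates the translation factor eIF2alpha. General protein synthesis then slows, while translation of the Atf4 mRNA goes up through upstream reading frames in its leader, so that ATF4 protein can rise with no rise of its mRNA. ATF4, often paired with a C/EBP protein, binds composite C/EBP-ATF response elements and switches on genes for amino acid synthesis, import and charging onto tRNA, along with its partners and inhibitors. In macrophages the same pathway also bears on cytokine production after LPS.

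The RefSeq promoters of the members (build GRCm38.p6) were searched for the response element written TGATGNAA, or TTNCATCA when read on the opposite strand. Each promoter ran from 250 bases before to 50 bases after an annotated start. The members were chosen around the ATF4 axis, which acts through this element, so the share with a match is not independent of the list. Promoters were at hand for 35 members; Slc7a5, Eif4ebp1, Cth, Cars, Lars, Nars and Wars had none in the table. 11 of the 35 members, 31.4%, held at least 1 match, against 297 of 10464 tested genes with a promoter in the table, 2.84%. The matches listed here are shown with 11 bases on each side, 5′ to 3′ on the strand of the gene, to place the element in each gene. Capitals mark the match, whose letters are fixed by the search except at the N.
Asns: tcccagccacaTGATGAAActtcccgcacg
Pycr1: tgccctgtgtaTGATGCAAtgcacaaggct
Yars: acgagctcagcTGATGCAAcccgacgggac
Chac1: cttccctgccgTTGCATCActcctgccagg
Nupr1: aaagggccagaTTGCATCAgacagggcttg
Vldlr: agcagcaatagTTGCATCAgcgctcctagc
Trib3: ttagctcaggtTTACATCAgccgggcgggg
Iars: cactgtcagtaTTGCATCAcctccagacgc
Tars: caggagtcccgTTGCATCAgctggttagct
Gars: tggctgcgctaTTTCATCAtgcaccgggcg

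In GRCm38.p6 these windows lie at chr6:7693214-7693243 (Asns, minus strand), chr11:120643833-120643862 (Pycr1, minus), chr4:129189895-129189924 (Yars, plus), chr2:119351038-119351067 (Chac1, plus), chr7:126625562-126625591 (Nupr1, minus), chr19:27216809-27216838 (Vldlr, plus), chr2:152344028-152344057 (Trib3, minus), chr13:49682126-49682155 (Iars, plus), chr15:11399655-11399684 (Tars, minus) and chr6:55037960-55037989 (Gars, plus). The first base of the match stood 23 bases before the annotated start of Asns, 30 before that of Gars, 193 before that of Chac1 and 14 after that of Trib3. By role, the match was found in 5 of 9 promoter-matched genes for tRNA synthetases and tRNA export, 3 of 8 for kinases, feedback and signalling, 2 of 8 for synthesis, 1 of 6 for transcription factors and 0 of 4 for transporters. Outside the set it was found in 3 of 10 further amino acid transporters, 3 of 16 further stress response genes, 2 of 11 further enzymes, 0 of 5 other cytosolic synthetases and 0 of 14 mitochondrial ones. A match is a description of letters, not of binding. Members with and without it had like median log2 changes, 0.30 and 0.29 with DHA and 0.36 and 0.43 with cpdA, and the 286 other tested genes with a match had medians of -0.01 and -0.03.

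Libraries within a group differed by uneven amounts, which touches every result below. Between 13797079 and 37572822 whole reads per library were recovered from the normalized counts, the lowest in DHA 1. At equal depth, the difference between 2 libraries was expressed as a multiple of sampling noise (the median chi-square over genes, 1 for noise alone). That multiple was 1.69 for LPS 1 and LPS 2 and 1.28 for the pair of DHA 1 and cpdA 1 from different groups, but 4.17 and 6.32 for DHA 1 against DHA 3 and DHA 2, 17.5 and 18.1 for cpdA 3 against cpdA 2 and cpdA 1, and 9.66 and 9.72 for LPS 3 against LPS 1 and LPS 2. Over the 42 members the median absolute log2 difference was 0.038 between DHA 1 and cpdA 1 and 0.345 between DHA 1 and DHA 2. DHA 1 and cpdA 1 were thus closer to each other than LPS 1 was to LPS 2, and whether both carry the right label cannot be told from the labels; this bears on every DHA and cpdA value below. Key values are therefore also given without cpdA 3 and LPS 3, and without DHA 1 and cpdA 1. All 12 macrophage markers were in the table, and Cd3d, a defining marker of T cells, had normalized counts of 2.7 to 11.5. The macrophage markers summed to 333385 to 585690 in LPS, 563073 to 585256 in DHA + LPS and 386835 to 589064 in cpdA + LPS, lowest in LPS 3 and cpdA 3. Most of this sum was Lyz2, and single markers went other ways: Csf1r was 7572 to 8155 in LPS and 10002 to 21816 in the treated libraries, highest in cpdA 3, and Fcgr1 was 4159 to 10269 in LPS, highest in LPS 3, and 957 to 2748 in the treated libraries. 3 of 5 T cell markers were in the table, mostly Lck by level. They summed to 298 to 424 in LPS, 151 to 192 in DHA + LPS and 74.2 to 206 in cpdA + LPS. This sum was lower in every treated library, as was Lck. Cd2, at low counts, was 5.4, 4.6 and 3.1 in LPS, 0.0, 10.1 and 8.9 with DHA and 9.5, 9.0 and 16.3 with cpdA. Cd3d overlapped between groups. 4 of 5 mast cell markers summed to 191 to 209, 116 to 134 and 130 to 270, but single markers went opposite ways. Kit was 130.4, 104.9 and 19.4 in LPS and 32.6 in cpdA 3. Cpa3 was 37.0, 40.3 and 82.9 in LPS and 89.6 in cpdA 3, and Tpsb2 was 33.7, 33.4 and 84.9 and 139.4. The 5 B cell markers summed to 254 to 311, 183 to 230 and 232 to 320. The 2 of 5 neutrophil markers in the table summed to 125 to 370, 408 to 493 and 78.8 to 482. The 7 mesothelium and fibroblast markers, mostly Col1a1 and Col3a1 by level, summed to 11907 to 19334, 12932 to 14755 and 12943 to 14761. Lrrn4, of the same list, was 32.6, 23.0 and 136 in LPS and 43.4 to 134 in the treated libraries. The part of other cell types in the results was not tested, and in bulk RNA fewer cells of a type and less RNA per cell cannot be told apart.

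Most members stood higher with either compound, by a small margin, and none passed the test over all genes. With DHA, 38 of 42 had a positive log2 change, against 49.8% of all tested genes, and the members' median was 0.29 against -0.00067 over all genes. With cpdA, 39 of 42 were positive, against 49.4% of all genes, and the median was 0.39 against -0.0043. All 3 DHA libraries lay above all 3 LPS libraries for 22 members, against 13.0% of all genes, and below them for 1, against 15.0%. All 3 cpdA libraries lay above all LPS libraries for 25 members, against 10.7% of all genes, and below them for 1, against 12.2%. 18 members stood above LPS without overlap under both compounds, against 7.07% of all genes; the comparisons share their LPS libraries, so the second is not a separate sighting of the first.

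**Figure D1:**
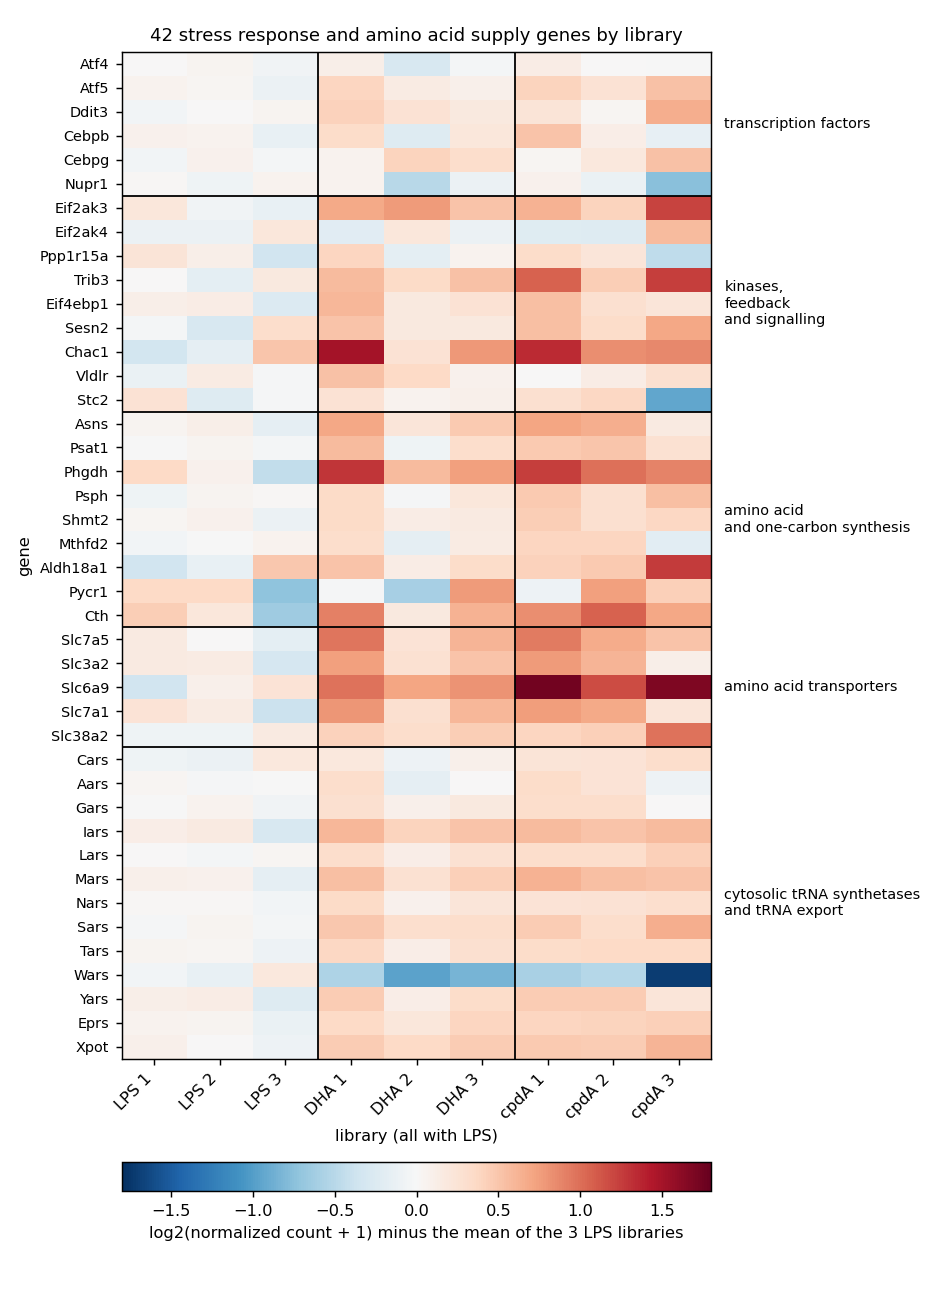
Log2 difference of each library (columns) from the mean of the 3 LPS libraries for the 42 genes (rows), on the log2(normalized count + 1) scale, grouped by role; red is higher and blue lower. Most rows are red in the DHA and cpdA columns, Wars is blue in all 6 of them, and DHA 2 is the palest DHA column, with the lowest DHA value for 36 of 42 genes.

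By limma with Benjamini-Hochberg adjustment over 13895 genes, 0 of 42 members were called for either compound, where the share of all genes called was 0.00720% in each comparison. With the replicate number as a block, 0 genes in all were called. At an unadjusted p under 0.05, 18 members were higher and 1 lower with DHA (all genes 7.49% and 6.66%), and 28 were higher and 1 lower with cpdA (all genes 6.56% and 8.05%). The edgeR test on recovered reads called 0 members in each, against 0.0216% of all genes with DHA and 0.00720% with cpdA. DESeq2 on the same reads called 5 members higher with DHA, Phgdh, Mars, Iars, Eprs and Xpot, against 1.23% of all genes, and 0 lower, against 1.09%. With cpdA it called 14 higher, against 1.61% of all genes, and 0 lower, against 1.65%: these 5 with Slc7a5, Slc6a9, Eif2ak3, Trib3, Tars, Shmt2, Lars, Slc38a2 and Sars. Left out singly, cpdA 3 was the 1 library whose removal brought members past the limma test: Eif2ak3 and Xpot higher (all genes 1.11%) and Wars lower (all genes 1.58%) with DHA. That removal alters the spread and not the DHA values. Without cpdA 3 and LPS 3, limma called 8 members higher with DHA (Slc6a9, Eif2ak3, Aldh18a1, Mars, Iars, Xpot, Slc38a2 and Sars; all genes 2.75%) and Wars lower (all genes 4.04%), 9 members in all against 6.79% of all genes. For cpdA it then called 6 higher (Asns, Slc6a9, Aldh18a1, Mars, Xpot and Slc38a2; all genes 0.712%) and 0 lower (all genes 0.885%), against 1.60% of all genes in either direction. Without DHA 1 and cpdA 1, 0 members were called and the medians were 0.22 with DHA and 0.38 with cpdA.

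The transcription factors were the role group with the smallest changes, with medians of 0.15 with DHA and 0.21 with cpdA over 6 genes. Atf4 (Entrez 11911), the central factor of the response, had normalized counts of 6762.5, 6916 and 6434 in the LPS libraries, in the order of replicates 1, 2 and 3 used throughout. They were 7187, 5494 and 6567 with DHA and 7316.5, 6755.5 and 6642 with cpdA. The 3 groups overlapped. Its log2 change was -0.07 (SE 0.12; limma adjusted p = 0.812) with DHA and 0.04 (SE 0.12; limma adjusted p = 0.905) with cpdA, and the 95% interval was -0.34 to 0.20 and -0.23 to 0.31. The sign of the DHA value turned under quantile normalization (0.06) and without DHA 2 (0.04), and that of the cpdA value without cpdA 1 (-0.00055).

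Atf5 (Entrez 107503), an ATF4 relative that is likewise controlled through upstream reading frames, had 1049, 1032.5 and 932 in the LPS libraries, 1306, 1109.6 and 1071 in the DHA libraries and 1319, 1199 and 1444 in the cpdA libraries. Each treated library lay above each LPS library. The log2 change was 0.21 with DHA (limma adjusted p = 0.41) and 0.39 with cpdA (limma adjusted p = 0.224), and the DHA value was 0.12 without DHA 1. In GRCm38.p6 the gene overlaps Nup62 by 571 bases and Il4i1b by 289, and without strand in the counting their reads cannot be told apart there. Ddit3 (Entrez 13198), which encodes CHOP, a C/EBP family factor of prolonged stress, stood at 347, 362 and 373.5 in LPS, 479, 432 and 407 in DHA + LPS and 424, 369 and 566 in cpdA + LPS. The DHA libraries lay above LPS, while cpdA 2 lay within the LPS range and cpdA 3 above every other library. Its changes were 0.28 and 0.31 (limma adjusted p = 0.42 and 0.385), and without cpdA 3 the second was 0.13. Cebpg, a binding partner of ATF4, had 985, 1075 and 989 in LPS, 1063, 1347.5 and 1269.8 with DHA and 1036, 1159 and 1470.4 with cpdA, with overlap in each comparison. Cebpb, the C/EBP factor of inflammatory gene control, had log2 changes of 0.10 and 0.16, and Nupr1, a small chromatin protein of the stress response, of -0.18 and -0.26 (limma adjusted p from 0.595 to 0.84 for these 4 values).

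Among the kinases, feedback and signalling genes, Eif2ak3 had higher values in every treated library and the feedback phosphatase subunit did not. Eif2ak3 (Entrez 13666), the PERK kinase, had 386, 320.4 and 305 in LPS, 539.5, 568 and 481 in DHA + LPS and 517, 441 and 779.6 in cpdA + LPS. The group means were 337 ± 42.9, 529.5 ± 44.6 and 579 ± 178 (SD, n = 3). No treated library overlapped LPS, and cpdA 3 was the highest. The log2 change was 0.65 (SE 0.20; limma adjusted p = 0.261) with DHA and 0.74 (limma adjusted p = 0.224) with cpdA, and the cpdA value was 0.44 without cpdA 3 and LPS 3. Eif2ak4, the GCN2 kinase, had log2 changes of -0.03 and 0.04. Ppp1r15a, the GADD34 subunit that leads a phosphatase back to eIF2alpha, had log2 changes of 0.09 and 0.03, with limma adjusted p from 0.887 to 0.973 over these 4 values.

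Trib3 (Entrez 228775), a pseudokinase induced by ATF4 and CHOP that feeds back on ATF4, had 97.8, 86.4 and 110.5 in LPS, 145, 124 and 141 in DHA + LPS and 205, 134 and 233 in cpdA + LPS. All treated libraries lay above LPS, and cpdA 1 and cpdA 3 lay above all DHA libraries. The changes were 0.48 (SE 0.21, limma adjusted p = 0.355) and 0.92 (SE 0.21, limma adjusted p = 0.202). Over all fits run, they went from 0.39 to 0.56 with DHA and from 0.75 to 1.15 with cpdA. Chac1 (Entrez 69065), which degrades glutathione and is a target of the ATF4 and CHOP branch, had 37.0, 41.5 and 66.5 in LPS, 134, 56.4 and 81.2 in DHA + LPS and 119.6, 84.5 and 86.0 in cpdA + LPS. DHA 2 lay inside the LPS range, where LPS 3 was the highest, and the cpdA libraries did not overlap LPS. Its changes were 0.85 (SE 0.34) and 1.01 (SE 0.34), with limma adjusted p of 0.319 and 0.252; without DHA 1 the first was 0.52. Sesn2, a stress protein that restrains mTORC1, had 338, 285 and 433 in LPS, 497, 390.2 and 393 with DHA and 506, 438 and 560.5 with cpdA, with log2 changes of 0.29 and 0.52 (limma adjusted p = 0.461 and 0.251). Its DHA change was 0.15 without LPS 2, 0.18 without DHA 1 and 0.45 without LPS 3. Eif4ebp1, the translation inhibitor 4E-BP1, had 1143, 1174 and 901 in LPS, 1612, 1199.8 and 1274 with DHA and 1558.5, 1305 and 1239 with cpdA, without overlap with LPS. Its log2 changes were 0.34 and 0.35 (limma adjusted p = 0.351 and 0.332), and 0.22 and 0.23 without LPS 3. Vldlr, a lipoprotein receptor, and Stc2, a secreted glycoprotein, overlapped between groups, with changes from -0.09 to 0.32.

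**Figure D2:**
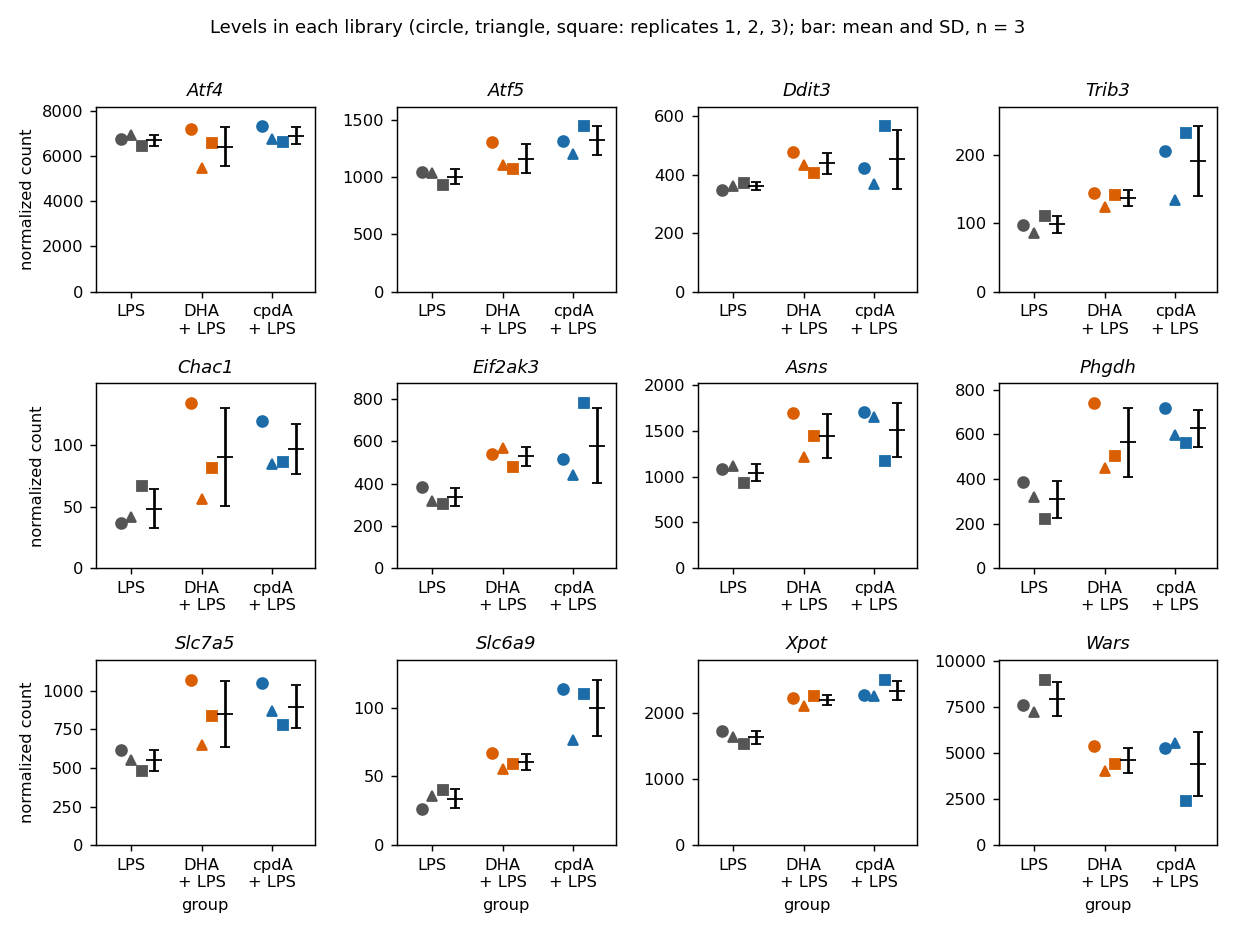
Normalized counts (y axes, from 0) of 12 of the genes in each library, with circles, triangles and squares for replicates 1, 2 and 3 and black bars for the mean and SD of 3 libraries. Atf4 overlaps between groups, Eif2ak3, Trib3, Asns, Phgdh, Slc7a5, Slc6a9 and Xpot lie above LPS in every treated library, and Wars lies below.

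All 9 genes of amino acid and one-carbon synthesis had a positive change with either compound, with medians of 0.27 with DHA and 0.44 with cpdA. The sign turned for Pycr1 without LPS 3 (-0.32 and -0.01) and with DHA also without DHA 3 (-0.31), and for Mthfd2 with DHA without DHA 1 (-0.01). The largest change among them was that of Phgdh with each compound. Phgdh (Entrez 236539), which takes the glycolytic intermediate 3-phosphoglycerate into serine synthesis, had 389, 318 and 223 in LPS, 740.1, 449.9 and 505 in DHA + LPS and 720.5, 599 and 561 in cpdA + LPS. The means were 310.1 ± 83.3, 565 ± 154 and 627 ± 83.1 (SD, n = 3), and no treated library overlapped LPS. The log2 change was 0.87 (SE 0.24, limma adjusted p = 0.24) with DHA and 1.04 (SE 0.24, limma adjusted p = 0.198) with cpdA. Over all fits run, it went from 0.65 to 1.05 with DHA and from 0.82 to 1.22 with cpdA. Psat1, the next enzyme, had 665, 697 and 652 in LPS, 996, 638 and 839 with DHA and 933, 949.5 and 815 with cpdA; DHA 2 lay below LPS and the cpdA libraries all lay above. Psph, which completes serine, had 176, 194 and 189 in LPS, 236, 183 and 215 with DHA and 259, 227 and 272.5 with cpdA, with DHA 2 inside the LPS range and cpdA above it. Its changes were 0.17 and 0.44, and those of Psat1 were 0.27 and 0.42 (limma adjusted p from 0.233 to 0.569 over these 4). Without DHA 1 the DHA changes were 0.09 for Psph and 0.12 for Psat1, and without DHA 2 they were 0.27 and 0.45.

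Downstream of serine, Shmt2 (Entrez 108037), which moves the serine carbon onto folate in mitochondria, had 571, 585 and 515 in LPS, 709, 610.0 and 622 in DHA + LPS and 754, 677 and 719 in cpdA + LPS, above LPS throughout. Its changes were 0.21 and 0.36 (limma adjusted p = 0.357 and 0.224). Mthfd2, the next mitochondrial folate enzyme, had 2787, 2881 and 3026 in LPS, 3613.5, 2581 and 3212 with DHA and 3775, 3772.5 and 2549 with cpdA. DHA 2 and cpdA 3 lay below all LPS libraries and the other 4 treated libraries above them. Asns (Entrez 27053), asparagine synthetase, whose promoter element is printed above, had 1081, 1115.5 and 934 in LPS, 1689.7, 1209 and 1437 in DHA + LPS and 1701, 1646 and 1168 in cpdA + LPS. No treated library overlapped LPS, with changes of 0.46 (SE 0.17, limma adjusted p = 0.295) and 0.51 (SE 0.17, limma adjusted p = 0.252). Over all fits run, the Asns changes went from 0.34 to 0.58 with DHA and from 0.41 to 0.68 with cpdA. Aldh18a1, which starts proline synthesis, had log2 changes of 0.33 and 0.71, and cpdA 3 had 746 against at most 446 in the other libraries. LPS 3 had 436 against 243.5 and 282 in LPS 1 and LPS 2: the DHA change was 0.57 without LPS 3 and 0.15 without LPS 1, and the cpdA change was 0.44 without cpdA 3. Pycr1, the last proline enzyme, had normalized counts of 9.2 to 27.8 in all groups. Cth, which makes cysteine from cystathionine, had log2 changes of 0.57 and 0.86 at normalized counts of 12.3 to 42.6; LPS 3 was its lowest library, and without it the changes were 0.25 and 0.54.

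The 5 amino acid transporters formed the role group with the highest medians, 0.56 with DHA and 0.60 with cpdA, and in each of them all 3 DHA libraries exceeded all 3 LPS libraries. Slc6a9 (Entrez 14664), the glycine transporter GLYT1, had 26.1, 35.7 and 39.9 in LPS, 66.9, 55.3 and 59.0 in DHA + LPS and 113, 76.3 and 109.6 in cpdA + LPS. The 3 groups did not overlap, with means of 33.9 ± 7.07, 60.4 ± 5.93 and 99.7 ± 20.3 (SD, n = 3). Its change with cpdA, 1.53 (SE 0.23; limma adjusted p = 0.13), was the largest of the 42, and that with DHA was 0.83 (SE 0.23; limma adjusted p = 0.246). Its LPS counts were low. With 8 instead of 1 added to each value, its changes were 1.36 with cpdA and 0.72 with DHA. The gene overlaps Ccdc24 by 51 bases in GRCm38.p6. Slc7a5 (Entrez 20539), the LAT1 subunit that imports leucine and other large neutral amino acids, had 613, 548.5 and 483 in LPS, 1068, 645 and 833.5 in DHA + LPS and 1045, 867.5 and 776 in cpdA + LPS. All treated libraries lay above LPS, by 0.61 (limma adjusted p = 0.263) and 0.70 (limma adjusted p = 0.224) on the log2 scale. Over all fits run, the Slc7a5 changes went from 0.43 to 0.79 with DHA and from 0.59 to 0.80 with cpdA. Slc3a2, the 4F2hc chain that pairs with LAT1, had 14790.2, 14769 and 10717 in LPS, 22145, 16122.5 and 18912 with DHA and 22561, 20296 and 14350.4 with cpdA. Here LPS 3 and cpdA 3 were the lowest libraries of their groups, and cpdA 3 lay inside the LPS range. The log2 changes were 0.51 and 0.50 (limma adjusted p = 0.337 and 0.334).

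Slc7a1 (Entrez 11987), the CAT1 importer of arginine and lysine, had 1899.9, 1779 and 1223 in LPS, 2779.8, 1963 and 2420.5 in DHA + LPS and 2715, 2587 and 1869.8 in cpdA + LPS, again with LPS 3 and cpdA 3 low. The DHA libraries lay above LPS, and cpdA 3 lay inside the LPS range. Between libraries of the same number, cpdA exceeded LPS by 0.51, 0.54 and 0.61 on the log2 scale for Slc7a1 and by 0.61, 0.46 and 0.42 for Slc3a2; 31 of 42 members were higher in all 3 such pairs, against 22.5% of all genes. The Slc7a1 changes of 0.56 and 0.56 were 0.36 and 0.36 without LPS 3. Slc38a2, the SNAT2 importer of small neutral amino acids, had 1535, 1533 and 1813 in LPS, 2162, 2018 and 2207 with DHA and 2126, 2190.1 and 3196 with cpdA. Those libraries were high here, with cpdA 3 the highest of all and LPS 3 the highest control, and no treated library overlapped LPS. Its changes were 0.39 and 0.60 (limma adjusted p = 0.315 and 0.224), and without cpdA 3 and LPS 3 they were 0.47 and 0.49 (limma adjusted p = 0.00472 and 0.0133).

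**Figure D3:**
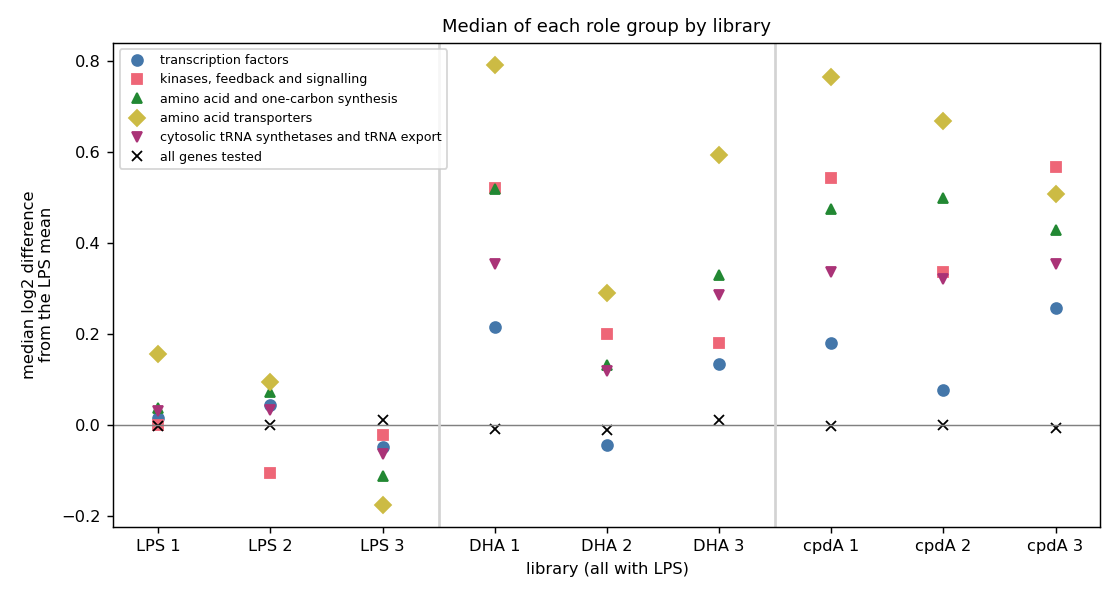
Median log2 difference from the LPS mean (y axis) of the genes of each role group in each of the 9 libraries (x axis), with all 13895 tested genes as crosses. Transporters are the highest group in DHA 1, 2 and 3 and in cpdA 1 and 2, while all tested genes stay within 0.02 of 0.

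Of the 13 genes of the cytosolic tRNA synthetases, which join each amino acid to its tRNA, and the tRNA exporter Xpot, 12 had a positive change with either compound. The medians were 0.26 with DHA and 0.35 with cpdA. Xpot (Entrez 73192), which carries tRNA out of the nucleus, had 1732.5, 1639.8 and 1535 in LPS, 2234, 2103 and 2252.5 in DHA + LPS and 2271, 2251.5 and 2499 in cpdA + LPS. The means were 1636 ± 98.9, 2196 ± 81.4 and 2340.4 ± 138 (SD, n = 3), and the changes were 0.43 (SE 0.09; limma adjusted p = 0.183) and 0.52 (SE 0.09; limma adjusted p = 0.132). Every treated library lay above every LPS library.

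Mars (Entrez 216443), the methionine enzyme, had 914, 906 and 771.5 in LPS, 1253, 1043 and 1164 in DHA + LPS and 1327, 1259 and 1225 in cpdA + LPS, with no overlap with LPS. Its changes were 0.42 (SE 0.10; limma adjusted p = 0.219) and 0.56 (SE 0.10; limma adjusted p = 0.147). In GRCm38.p6 the ends of Mars and Ddit3 overlap by 71 bases, where reads cannot be assigned without strand. Iars (Entrez 105148), the isoleucine enzyme, had 1707.5, 1752 and 1286 in LPS, 2381, 2069 and 2242 with DHA and 2321, 2234 and 2328 with cpdA, also without overlap, with LPS 3 the lowest library. Sars (Entrez 20226), the serine enzyme, had 1967, 2067 and 1948 in LPS, 2789, 2458 and 2492 with DHA and 2729, 2478 and 3152 with cpdA, and again each treated library exceeded each LPS library. The changes of Iars and Sars were 0.51 and 0.37 with DHA (limma adjusted p = 0.219 and 0.25) and 0.55 and 0.48 with cpdA (limma adjusted p = 0.198 and 0.198). Eprs, which holds the glutamate and proline activities in a single protein, Lars, Tars and Nars lay above LPS in all 6 treated libraries, with changes of 0.21 to 0.32 with DHA and 0.27 to 0.41 with cpdA. Gars, which serves cytosol and mitochondria, lay above LPS in the DHA libraries, and Yars and Cars in the cpdA libraries. Aars overlapped in each comparison, with changes of 0.06 and 0.17. Aars shares 3974 bases with Ddx19b in GRCm38.p6, Psph 88 with Cct6a, Shmt2 32 with Ndufa4l2 and Wars 24 with Wdr25, with the same limit on reads.

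Wars (Entrez 22375), the tryptophan enzyme, was lower in the treated libraries; it was singled out after its values were seen. In human cells this synthetase is known to be induced by interferon gamma. Its normalized counts were 7595, 7203 and 8957 in LPS, 5370.1, 4029 and 4420.4 in DHA + LPS and 5274, 5529 and 2419 in cpdA + LPS, with every treated library below every LPS library. The means were 7919 ± 921, 4606 ± 690 and 4408 ± 1726 (SD, n = 3). The log2 change was -0.79 (SE 0.29; limma adjusted p = 0.295) with DHA and -0.93 (SE 0.29; limma adjusted p = 0.238) with cpdA. The control library LPS 3 was the highest of all 9 and cpdA 3 the lowest. Without cpdA 3 and LPS 3 the DHA change was -0.69 (limma adjusted p = 0.00472) and the cpdA change -0.45 (limma adjusted p = 0.116).

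The synthetases outside the set had medians near 0. The 8 other cytosolic synthetases (Dars, Farsa, Farsb, Hars, Kars, Qars, Rars and Vars) had medians of -0.04 with DHA and -0.03 with cpdA, with 2 and 3 positive, and limma called 0 of them, with 0 at an unadjusted p under 0.05 and 0 by edgeR or DESeq2. The 17 mitochondrial synthetases had medians of 0.0023 (-0.03 under quantile normalization) and 0.03, with 10 and 9 positive, and limma again called 0, with 1 higher and 1 lower at an unadjusted p under 0.05 in each comparison (Mars2 and Sars2). Kars, the lysine enzyme, had 2849.8, 2694 and 2895 in LPS, 2769, 2029.7 and 2370.4 in DHA + LPS and 2554, 2525 and 1724 in cpdA + LPS, with log2 changes of -0.25 and -0.33. Farsb, a phenylalanine enzyme subunit, had log2 changes of 0.22 and 0.30 (limma adjusted p = 0.493 and 0.359), and Farsa, the other subunit, of -0.21 and -0.18. These groups were set beside each other as counts and medians, and the difference between them was not tested.

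**Figure D4:**
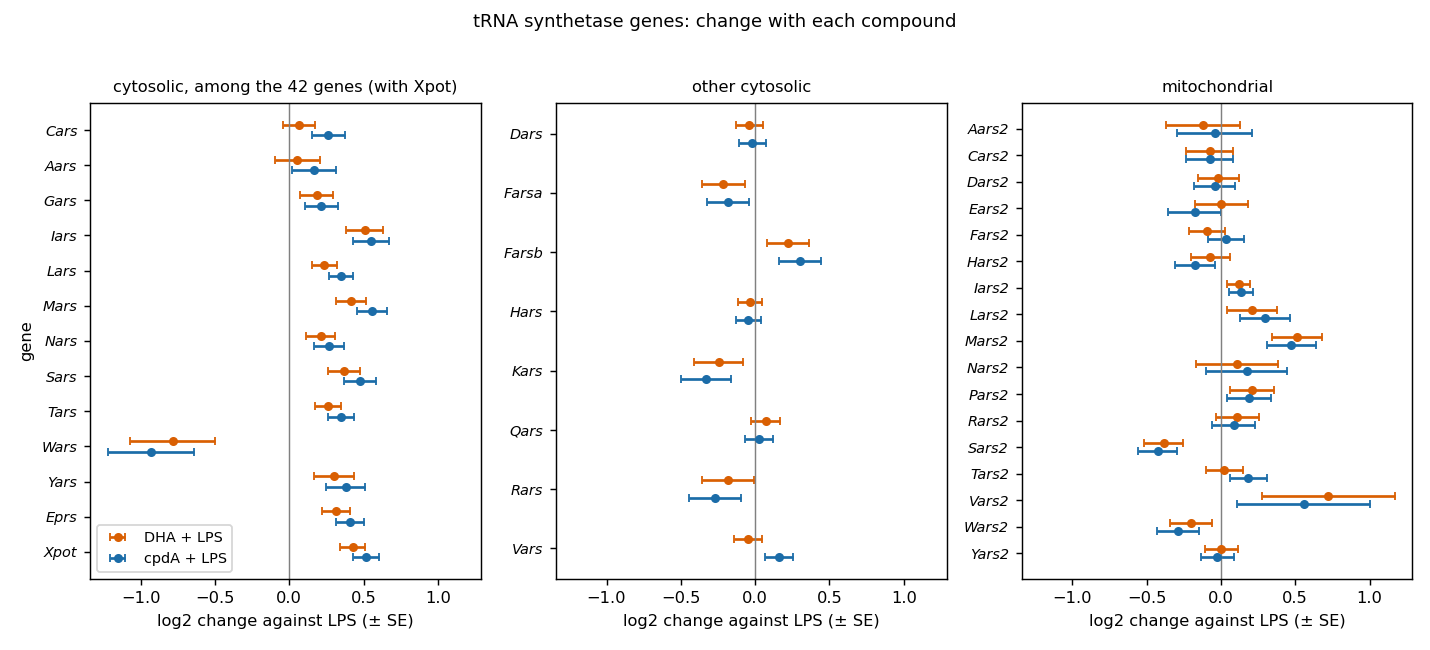
Log2 change against LPS (x axis, with SE) for DHA + LPS and cpdA + LPS in the 13 genes of the set for cytosolic tRNA synthetases and tRNA export, 8 other cytosolic synthetases and 17 mitochondrial synthetases (y axes). 12 of the 13 lie above 0 with both compounds, Wars lies below, and the other synthetases lie on both sides of 0.

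Other genes of the pathway, taken from lists, were mixed. The lists were chosen with earlier results of these data known, and the genes named from them by their unadjusted p. In the 3 lists below limma and edgeR called 0 with either compound. DESeq2 called 1, 2 and 1 higher with DHA, where it called 1.23% of all genes higher. With cpdA it called 2, 4 and 0 higher, against 1.61% of all genes. Among 18 further genes of the stress response, positive values numbered 7 with DHA and 8 with cpdA, with medians of -0.10 and -0.04 (0.01 for cpdA under quantile normalization); at an unadjusted p under 0.05, 4 were higher and 1 lower with DHA and 3 higher and 1 lower with cpdA. Herpud1, an ER-associated degradation protein, had 441, 416 and 221 in LPS, 1072, 832 and 955 in DHA + LPS and 1022, 878 and 1412 in cpdA + LPS, while Eif2ak2, the interferon-induced eIF2alpha kinase PKR, had 11464, 11105 and 15675 in LPS, 9151, 7026 and 9307 with DHA and 9074, 9799 and 5295 with cpdA. The first lay above LPS and the second below it in each treated library. Gdf15, a secreted stress cytokine, had log2 changes of 0.60 and 0.95 (limma adjusted p = 0.334 and 0.224). Of 15 further enzymes of amino acid and one-carbon metabolism, 14 had a positive change with each compound, with medians of 0.45 and 0.40. All 3 treated libraries lay above LPS for 9 of these enzymes in each comparison, against 13.0% of all genes with DHA and 10.7% with cpdA. For the 18 stress response genes this count was 3 with DHA and 5 with cpdA, and for the transporters below 4 and 3. All 3 lay below LPS for 0 enzymes, 3 and 2 stress response genes and 1 and 2 transporters (all genes 15.0% and 12.2%). Pck2, the mitochondrial PEP carboxykinase, had 190.2, 209 and 246 in LPS, 493, 325 and 378 in DHA + LPS and 463, 369 and 704 in cpdA + LPS, and Gpt2, the mitochondrial alanine aminotransferase, had 293.5, 303 and 258 in LPS, 426, 404 and 404 with DHA and 435, 415 and 408 with cpdA. Neither overlapped LPS, and the changes were 0.88 and 1.21 for Pck2 and 0.53 and 0.56 for Gpt2 (limma adjusted p from 0.132 to 0.242). Of 15 further amino acid transporters, 9 were positive with DHA and 10 with cpdA, with medians of 0.06 and 0.14. Slc36a4, with the smallest unadjusted p of this list in each comparison, had 666, 636 and 404 in LPS. It had 867, 925 and 989 with DHA and 789, 808.5 and 1076 with cpdA, without overlap with LPS. Its log2 changes were 0.74 and 0.67 (limma adjusted p = 0.233 and 0.23). Slc7a11, the cystine importer, had 10626, 11979 and 1929 in LPS, 19806, 15139 and 19329.6 in DHA + LPS and 18858, 21414 and 8714 in cpdA + LPS; cpdA 3 lay inside the LPS range, and LPS 3 was the lowest library.

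Between the compounds, which were given at different doses, 0 of 42 members were called by limma, edgeR or DESeq2, as were 0 genes in all by each, and 1 member had an unadjusted p under 0.05, against 0.482% of all genes higher and 0.540% lower. That member was Slc6a9, higher with cpdA by 0.70 on the log2 scale (95% interval 0.17 to 1.22; unadjusted p = 0.0147, limma adjusted p = 0.9999). Slc6a9, Cars and Eprs were the 3 of 42 members whose cpdA libraries all lay above the DHA libraries, against 3.04% of all genes. Trib3 differed by 0.44 (95% interval -0.04 to 0.92), while Xpot differed by 0.09 (-0.10 to 0.28), Asns by 0.05 (-0.33 to 0.43) and Wars by -0.15 (-0.80 to 0.51). The members' median difference was 0.09, against -0.02 over all genes, and it was 0.0095 without DHA 2. These intervals do not show that the compounds acted alike, and they rest on the labels of DHA 1 and cpdA 1 as given.

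The order of the libraries within a group was also counted over the members. In DHA + LPS, 35 of 42 members were highest in DHA 1, against 38.5% of all genes, and 36 were lowest in DHA 2, against 39.4%. In cpdA + LPS, cpdA 3 lay above cpdA 1 and cpdA 2 for 18 members and below them for 19, against 42.2% and 44.7% of all genes. These counts are near the shares of all genes, so that split is not particular to the members. For 15 members, against 22.7% of all genes, cpdA 3 was the highest of all 9 libraries: Atf5, Ddit3, Cebpg, Eif2ak3, Eif2ak4, Trib3, Sesn2, Psph, Aldh18a1, Slc38a2, Cars, Lars, Sars, Eprs and Xpot. For 7 members, against 36.7% of all genes, it lay below every LPS library: Cebpb, Nupr1, Ppp1r15a, Stc2, Mthfd2, Aars and Wars. The other 2 cpdA libraries both lay above all LPS libraries for 32 of the 42, against 17.3% of all genes. The per-library median of the members, as a log2 difference from the LPS mean, was 0.41, 0.17 and 0.30 for replicates 1, 2 and 3 of DHA + LPS. For cpdA + LPS it was 0.42, 0.36 and 0.43, and for LPS itself 0.03, 0.05 and -0.05. All 6 treated libraries thus lay above all LPS libraries on this summary, though the LPS libraries are part of the mean used, which holds them near 0. Against the mean of LPS 1 and LPS 2 alone, the median was -0.08 for LPS 3. On that scale it was 0.38, 0.11 and 0.29 for DHA + LPS and 0.42, 0.34 and 0.37 for cpdA + LPS.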

How the data were processed

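Each signal value in the deposited table is a read count that the authors scaled by a size factor of its library, as the whole steps in the values show; DESeq, CASAVA 1.8.2, Bowtie2 and mm9 are named in the submitters' processing notes. For the counting program, the annotation and strand, the entry is: not given in the sources used here. The growth and extraction texts in the labels describe another kind of experiment and were not used. Whole reads were recovered for 99.93% to 99.99% of values per library (tolerance 0.05). The fit used limma 3.58.1 (R 4.3.3; trend and robust options) on log2(value + 1) over all 9 libraries, with Benjamini-Hochberg adjustment over 13895 genes and a threshold of 0.05; the scale understates changes of low genes. edgeR 4.0.16 (quasi-likelihood) and DESeq2 1.42.0 were run on recovered reads. DESeq2 gave no adjusted p for 2 members, Cth and Pycr1, with cpdA. The fits were tested on simulated data in which every gene and library had the same spread beyond sampling noise. The libraries here differ unevenly, so that test checks the running of the code and not the calls made here. The sequence windows of 1 member with a promoter match are not reported here. The members, lists and tests were chosen with earlier results of these data known. Values in every library were given for Atf4, Ddit3, Trib3, Chac1 and Asns and the 3 members of each role group with the smallest unadjusted p in each comparison with LPS; Psat1, Mthfd2, Slc3a2 and Wars were added after their values were seen. Genes outside the set were named from lists, at most 3 per list and comparison, by the same p. The alternatives without 2 libraries were chosen after seeing the data. What the replicate numbers stand for is not stated in the labels. Deviations of same-number libraries from their group means correlated at 0.387, 0.234 and 0.437 for LPS and cpdA, so these count as paired by a rule of over 0.1, and at 0.14, -0.0654 and 0.0199 for LPS and DHA, which do not. DHA and cpdA gave 0.407, -0.345 and 0.013. Different numbers gave 0.292 for LPS 2 with cpdA 1 and 0.264 for LPS 1 with cpdA 2. These lie above the same-number value of 0.234 and below those of 0.387 and 0.437. DHA 2 with cpdA 3 gave 0.452, so correlation over 0.1 is not specific to the number.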

Additional observations from a re-analysis of the deposited data

How the results depend on the processing

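The number of members called stayed at 0 for each compound against LPS except as follows. DESeq2 called 5 for DHA and 14 for cpdA. Without cpdA 3 and LPS 3 limma called 9 and 6. Leaving out single libraries gave 0 to 3 for DHA (3 without cpdA 3) and 0 for cpdA. Over all genes limma called 1 for DHA and 1 for cpdA. For DHA this was 3 with a filter of at least 50, 3 with TMM scaling, 3 by edgeR, 9 with only the libraries compared and 315 by DESeq2. It was 0 with limma without trend and robust options, 0 with the replicate block and 0 without DHA 1 and cpdA 1, 943 without cpdA 3 and LPS 3, and 0 to 373 with single libraries left out. For cpdA it was 391 by DESeq2, 222 without cpdA 3 and LPS 3 and 0 to 3 with single libraries left out. It was 0 with limma without trend and robust options, 0 with the replicate block, 0 with only the libraries compared and 0 without DHA 1 and cpdA 1. The block changed no member's call. The members' median change stayed between 0.22 and 0.36 for DHA and between 0.34 and 0.43 for cpdA over all alternatives. Between the compounds it was 0.0095 to 0.17 with single libraries left out, against 0.09. The cause of these shifts was not tested. Members with counts under about 50, such as Pycr1, Cth, Stc2 and, in the LPS libraries, Slc6a9, are limited by depth.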
